A study of Mus musculus with 9 samples.

Results

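The transcripts described here encode the enzymes that use glutathione, thioredoxin or metal centres to remove peroxides, superoxide and reactive electrophiles. They were chosen by symbol: the glutathione transferases (Gst), glutathione peroxidases (Gpx), peroxiredoxins (Prdx) and thioredoxin reductases (Txnrd), together with Gclc, Gclm, Gss, Gsr, Sod1, Sod2, Cat, Txn1, Srxn1, Nqo1 and Hmox1. The rule found 51 of the 37980 rows of the deposited table, of which 50 are protein-coding and Prdx2-rs3 is a processed pseudogene. Of the 51, 43 passed the filter on low values (at least 1 FPKM in at least 3 libraries) and were tested. Gpx5, Gpx6, Gstt4, Prdx2-rs3 and Prdx6b were listed at 0 in all 9 libraries. Gpx7, Gsta1 and Gstm3 stayed under the filter, with highest values of 1.43, 0.225 and 0.879 FPKM. The cells, hair follicle stem cells from males of the strain C57BL/6J, had high CD49f and carried CD34 on their surface, and were taken by flow sorting from skin of the back and belly when the animals were 3, 19 or 24 months old. There were 3 libraries at every age; the labels number them 1 to 3 for the first pair of ages and 2 to 4 for the oldest. No mutation, transgene or treatment is given in the labels for any age.

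Glutathione is a tripeptide made by glutamate-cysteine ligase (the subunits Gclc and Gclm) and glutathione synthetase (Gss), and kept in its reduced form by glutathione reductase (Gsr) with NADPH. Superoxide dismutases turn superoxide into hydrogen peroxide, which catalase, the glutathione peroxidases and the peroxiredoxins then reduce, the last of these mostly with electrons from thioredoxin and its reductases. Glutathione transferases join glutathione to electrophilic compounds, and many of these genes are known targets of the transcription factor NRF2 (Nfe2l2), which is held in check by KEAP1.

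The measured quantity was FPKM, which by definition divides a transcript's fragments by its length and by the total mapped in that library, so levels can be compared between genes. How the libraries were scaled in Cuffdiff is not known here. Errors beside FPKM are SDs over 3 libraries, and errors beside log2 changes are limma's standard errors. Changes were computed on log2(FPKM + 1), so those of low transcripts come out too small. A transcript was called where limma's two-sided p, Benjamini-Hochberg adjusted over 11509 protein-coding genes, was under 0.05. In a fit on all 14275 rows that passed the filter, limma called 0 of the 43 enzymes in any comparison, beside 0.28% of all rows at 19 against 3 months, 0.203% at 24 against 3 months, 0.049% at 24 against 19 months and 0.224% by the F test. At unadjusted p under 0.05 that fit held 16 of the 43 enzymes at 19 against 3 months, 8 at 24 against 3 months and 12 at 24 against 19 months. Beside these stood 1993, 2655 and 1526 of all 14275 rows. The smallest adjusted p among the enzymes in that fit was 0.0521, for Gstt1. The labels do not say whether each library is a separate animal, so the p-values rest on the spread between libraries, whose source may be technical. The running numbers of the 3-month libraries are set apart from those of the older ones, and a batch difference between 3 months and the later ages cannot be told apart from age. The numbers of the 19- and 24-month libraries follow each other. The depth of each library is unknown, and the median FPKM over the tested genes lay between 10.01 and 11.3. Over all table rows, FPKM summed to 25022200 to 68767500 in the 3-month libraries and 8704870 to 20767100 in the later ones, without overlap. Over protein-coding rows the sums were 553388 to 621511 at 3 months and 593810 to 738569 later, and these overlapped. The part of this difference in the age comparisons was not tested. Cd34 averaged 548 ± 84.9, 626 ± 6.00 and 472 ± 60.9 FPKM at 3, 19 and 24 months and Itga6, which encodes CD49f, 90.8 ± 22.6, 84.5 ± 14.7 and 87.4 ± 8.88 FPKM (n = 3), while the bulge keratin Krt15 was listed at 0 in every library.

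The highest value of the enzymes in any library was 1144 FPKM, and the lowest averages of those tested were under 1 FPKM. Gpx1, the cytosolic glutathione peroxidase, had the highest FPKM of the 51 in 8 of the 9 libraries, and Sod1, the cytosolic copper and zinc superoxide dismutase, in the other one, replicate 1 at 3 months. Gpx1 averaged 948 ± 96.2 FPKM at 3 months, 846 ± 70.7 at 19 months and 763 ± 186 at 24 months (n = 3), and the libraries of the 3 ages overlapped. The peroxiredoxins Prdx1, Prdx5 and Prdx6, the transferase Gstm5 and the peroxidase Gpx4 were also abundant, the lowest of their averages at any age being 272 FPKM. Prdx1 averaged more than Sod1 at 19 months (685 against 594 FPKM) and at 24 months (573 against 479 FPKM), though their libraries overlapped at both ages. At 3 months Prdx1 lay above the other 4, whose libraries overlapped from one to the next in the order of their means. At the low end, Gpx3, Gsta3, Gsta4 and Gstp2 averaged under 3 FPKM at every age. The FPKM of all 51 rows summed to 4824.5 to 5510.3 at 3 months, 5488.7 to 5719.4 at 19 months and 4730.0 to 5323.5 at 24 months, so the sums at 24 months overlapped those at 3 months and lay below those at 19 months.

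**Figure D1:**
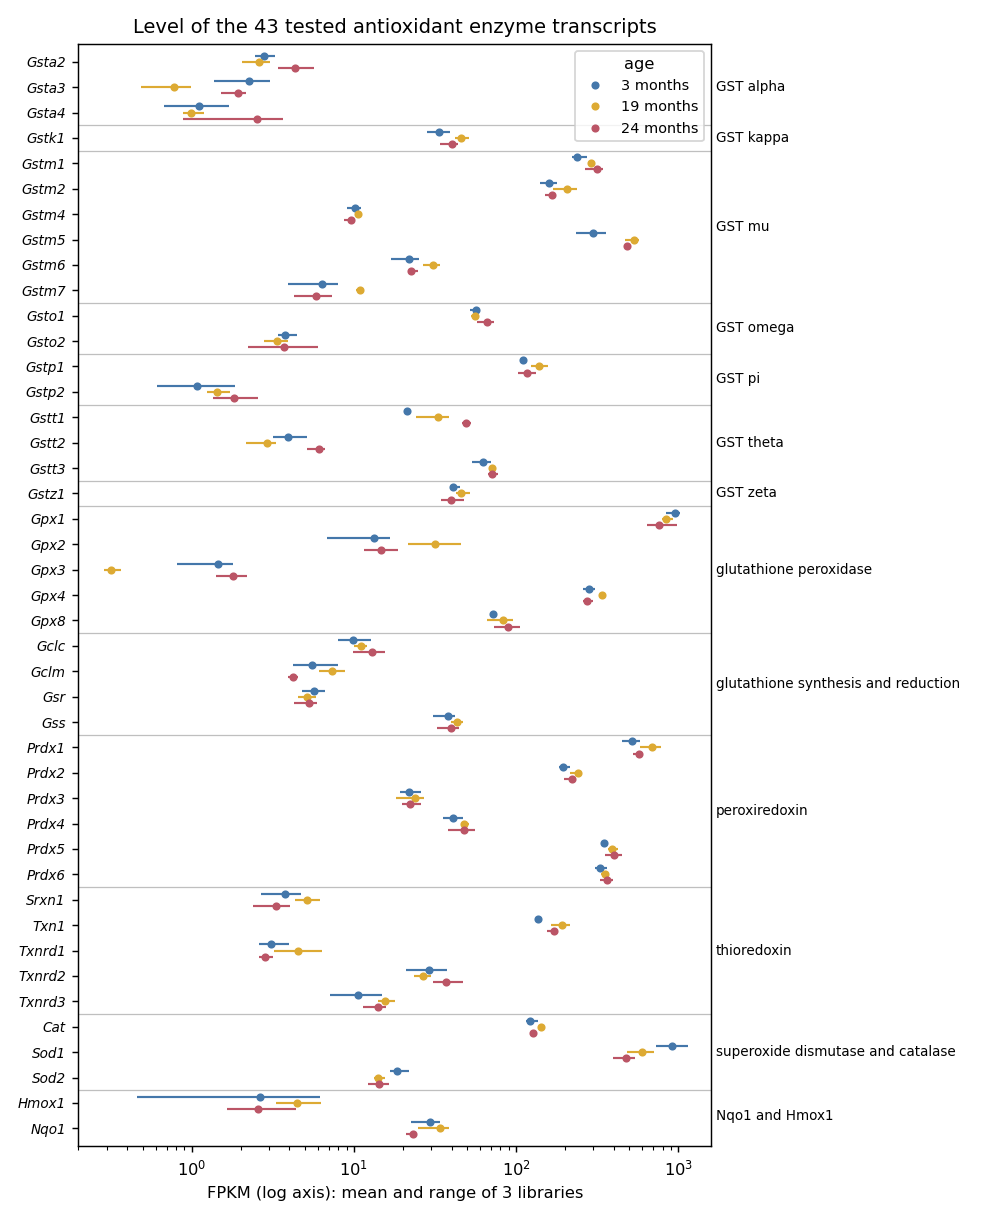
FPKM of the 43 tested enzyme transcripts on a log axis, one line per transcript grouped by family. Points are the mean of 3 libraries at 3, 19 and 24 months and bars run from the lowest to the highest library. Gpx1 and Sod1 lie at the top of the range and Gpx3, Gsta3 and Gsta4 at the bottom.

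With age, 6 of the 43 enzymes changed by at least 1 test. Gstm5, a mu-class glutathione transferase, rose at 19 and 24 months. Gstt1, a theta-class transferase, rose at 24 months and Sod1 fell at 24 months. Gpx3, the secreted glutathione peroxidase of plasma, fell at 19 months and was higher again at 24 months. It passed the filter through 3 and 24 months, where it is higher, so its calls rest partly on the filter. Without the low-value filter neither change of Gpx3 was called (limma, adjusted p = 0.112 and 0.128). Gstt2 and Gpx2 passed the F test for a change at any age but none of the comparisons between a pair of ages. The F test called 6 of the 43 enzymes and 4.54% of all genes tested.

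At 19 against 3 months, 1 enzyme was called higher and 1 lower of the 43, while 0.6% of all genes tested were called higher and 0.964% lower, together 1.56%. Of the 43, 31 had a change above 0, with a median of 0.21 on the log2 scale against a median of 0.01 over all genes. Every 19-month library lay above every 3-month library for 11 enzymes, 25.6% of the 43, against 11% of all genes. Those 11 were Gpx2, Gpx4, Gstk1, Gstm1, Gstm5, Gstm6, Gstm7, Gstp1, Gstt1, Prdx5 and Txn1. Every 19-month library lay below every 3-month library for Gpx3, Gsta3, Sod1 and Sod2, 9.3% of the 43, against 11.6% of all genes. Gpx3, the enzyme called lower, and Gsta3 passed the filter through the other ages, where they are higher. At unadjusted p under 0.05 the count was 17 of 43, with 13 higher and 4 lower, a share of 39.5% against 15.7% of all genes.

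At 24 against 3 months, 2 enzymes were called higher and 1 lower, while 1.5% of all genes tested were called higher and 2.34% lower, together 3.84%. A change above 0 was seen in 29 of the 43, with a median of 0.16 on the log2 scale against 0 over all genes. With quantile normalisation of the libraries the number above 0 was 23 and the median 0.04. The libraries of the ages did not overlap for 5 enzymes that were higher, 11.6% of the 43 against 10.6% of all genes. These were Gsta2, Gstm5, Gstt1, Gstt2 and Txn1. Only Sod1 and Sod2 of the 43 had all 24-month libraries below all 3-month libraries, 4.65% against 12% of all genes. At unadjusted p under 0.05 the share was 20.9% of the enzymes and 21.6% of all genes. This comparison and that of 19 against 3 months share the 3-month libraries.

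At 24 against 19 months, Gpx3 was called higher and 0 enzymes lower, while 0.712% of all genes tested were called higher and 0.217% lower, together 0.93%. Of the 43, 17 had a change above 0 and 26 below 0, with a median of -0.12 on the log2 scale against -0.02 over all genes. Every 24-month library lay below every 19-month library for 10 enzymes, 23.3% of the 43 against 10.4% of all genes. These were Cat, Gclm, Gpx2, Gpx4, Gstm4, Gstm6, Gstm7, Nqo1, Srxn1 and Txnrd1. The reverse held for Gpx3, Gsta2, Gsta3, Gstt1, Gstt2 and Txnrd2, 14% of the 43 against 7.94% of all genes. Of these, Gpx3 and Gsta3 passed the filter through the other ages, where they are higher. The call of Gpx3 thus rests partly on the filter. At unadjusted p under 0.05 there were 7 higher and 8 lower, together 34.9% of the enzymes against 12.8% of all genes.

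**Figure D2:**
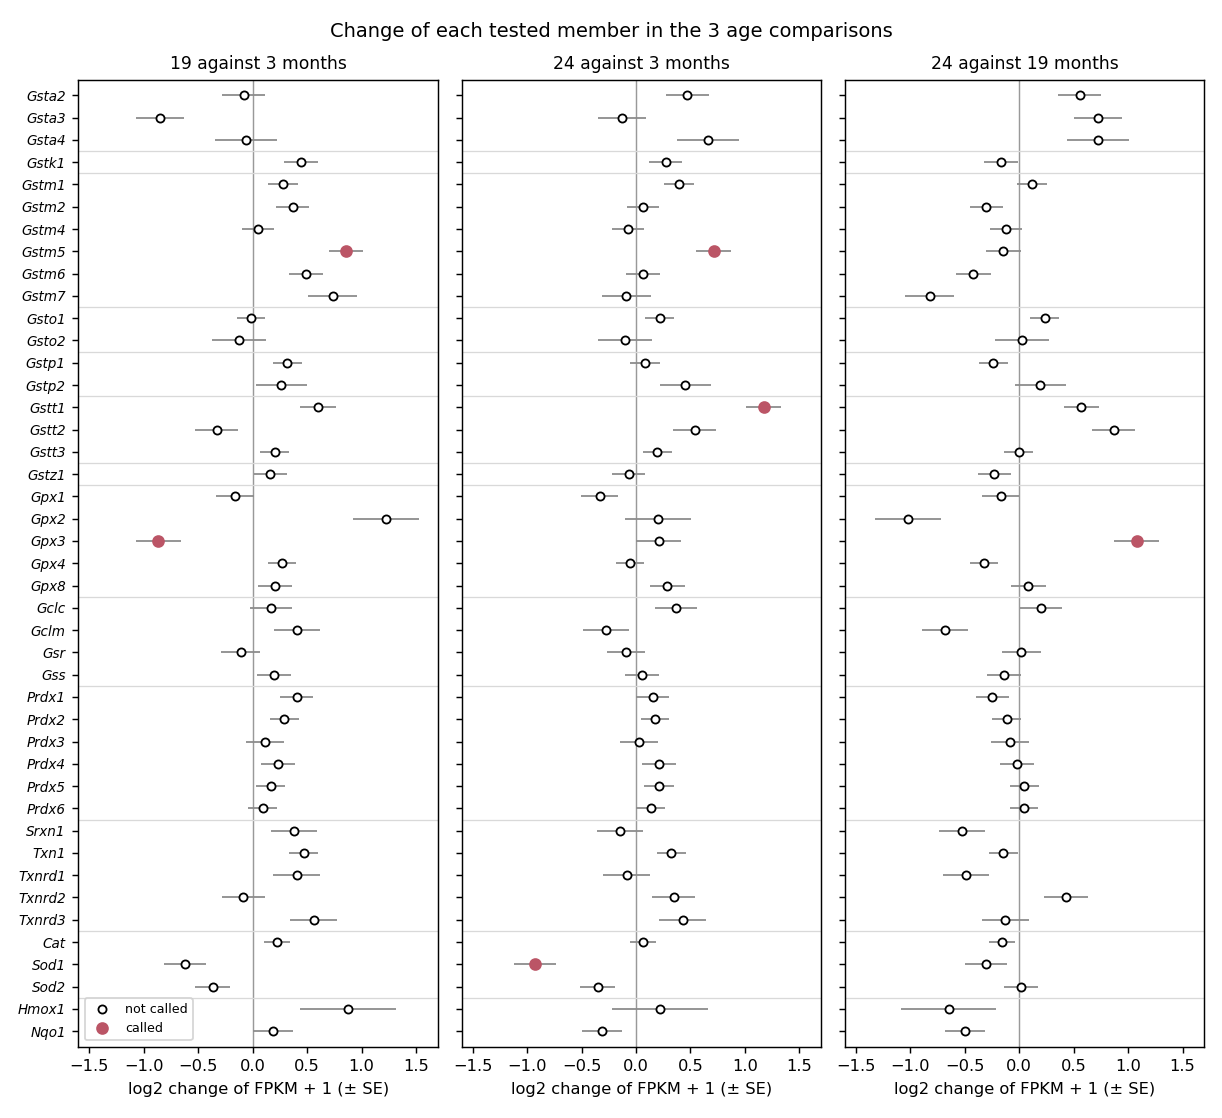
Change of each of the 43 tested enzymes in the 3 age comparisons, on the log2(FPKM + 1) scale, with bars of 1 standard error. Filled points are called (adjusted p under 0.05): Gstm5 and Gpx3 at 19 against 3 months, Gstm5, Gstt1 and Sod1 at 24 against 3 months, and Gpx3 at 24 against 19 months.

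The promoters of the 4 enzymes called between a pair of ages are shown because Gstm5 and Sod1, which moved in opposite directions, both hold a match to the core of the antioxidant response element, the DNA motif of NRF2. They are the 250 bases before the RefSeq start on the gene's strand, 5′ to 3′, in mouse build GRCm38.p6, with bases that match TGACNNNGC on either strand in capitals. They lie at chr3:107895604-107895853 on the plus strand for Gstm5, chr10:75797732-75797981 on the minus strand for Gstt1, chr16:90220512-90220761 on the plus strand for Sod1 and chr11:54902604-54902853 on the plus strand for Gpx3.
Gstm5: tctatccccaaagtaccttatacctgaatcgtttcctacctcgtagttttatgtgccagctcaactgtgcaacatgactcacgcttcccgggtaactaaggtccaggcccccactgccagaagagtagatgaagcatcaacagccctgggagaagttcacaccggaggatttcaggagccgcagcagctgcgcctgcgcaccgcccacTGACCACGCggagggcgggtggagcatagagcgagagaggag
Gstt1: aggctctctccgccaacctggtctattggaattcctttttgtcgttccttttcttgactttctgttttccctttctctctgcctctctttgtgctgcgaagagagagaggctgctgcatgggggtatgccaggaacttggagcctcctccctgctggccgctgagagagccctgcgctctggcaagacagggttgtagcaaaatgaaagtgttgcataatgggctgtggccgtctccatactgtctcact
Sod1: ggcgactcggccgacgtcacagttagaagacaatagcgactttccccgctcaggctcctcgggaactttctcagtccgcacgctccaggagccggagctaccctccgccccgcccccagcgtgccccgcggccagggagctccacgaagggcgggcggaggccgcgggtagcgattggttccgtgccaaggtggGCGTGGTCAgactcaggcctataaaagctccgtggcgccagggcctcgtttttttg
Gpx3: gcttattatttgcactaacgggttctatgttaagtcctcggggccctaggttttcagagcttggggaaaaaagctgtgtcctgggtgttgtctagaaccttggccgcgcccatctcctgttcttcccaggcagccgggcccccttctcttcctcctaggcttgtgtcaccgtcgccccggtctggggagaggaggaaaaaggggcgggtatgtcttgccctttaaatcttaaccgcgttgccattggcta
The match began 42 bases before the start in Gstm5, on the gene's strand (TGACCACGC). In Sod1 it began 56 bases before the start and read on the opposite strand (GCGTGGTCA). Gstt1 and Gpx3 had no such letters in this window. RefSeq windows, which also take in the 50 bases after the start, were found for 43 of the 51 enzymes. The motif occurred in 8 of those 43 (Gclm, Gsta3, Gstm5, Gstm7, Prdx1, Sod1, Srxn1 and Txnrd1), and in 14.0% of the 27025 genes with a window. The motif was searched on both strands, and a match is a description of the letters only.

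Sod1, whose promoter match reads on the opposite strand, was the enzyme with the largest drop in mean FPKM. At 3 months its libraries stood at 1144, 883 and 732 FPKM. At 19 months they stood at 707, 592 and 484 FPKM, and at 24 months at 396, 539 and 502 FPKM. Every library of both later ages lay below every 3-month library, and the libraries of the later ages overlapped each other. Sod1 averaged 920 ± 209, 594 ± 112 and 479 ± 74.3 FPKM (n = 3) at the 3 ages. At 24 against 3 months it fell by 0.93 ± 0.19 on the log2 scale (limma, adjusted p = 0.0146). The change of -0.62 ± 0.19 at 19 against 3 months was not called (adjusted p = 0.114), nor was that of -0.31 ± 0.19 at 24 against 19 months (adjusted p = 0.548). The call at 24 months was lost without replicate 2 at 3 months or replicate 2 at 24 months, with a highest adjusted p of 0.0571.

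Sod2, the manganese enzyme of mitochondria, averaged 18.5 ± 2.96, 14.0 ± 1.34 and 14.2 ± 2.03 FPKM and was not called (adjusted p = 0.275 and 0.215 against 3 months). Its libraries at both later ages lay below those at 3 months. Of its 50-base windows, 21% also occur in other genes, so its level is uncertain. Catalase (Cat), the peroxisomal enzyme that breaks down hydrogen peroxide, averaged 122 ± 11.8, 142 ± 5.89 and 128 ± 2.52 FPKM. It was not called either, with changes of 0.22 ± 0.12 at 19 against 3 months (adjusted p = 0.39) and 0.06 ± 0.12 at 24 against 3 months (adjusted p = 0.805), the last of which was below 0 with quantile normalisation. The ratio of Sod1 to Cat FPKM was 6.38 to 9.82 at 3 months, 3.56 to 4.83 at 19 months and 3.15 to 4.26 at 24 months, so the 3-month libraries lay above all the others.

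Of the 5 tested glutathione peroxidases, which reduce peroxides with glutathione, Gpx3 was called between ages and Gpx2 by the F test. Gpx3 was a low transcript, at 1.74, 1.80 and 0.816 FPKM at 3 months, 0.289, 0.298 and 0.368 FPKM at 19 months and 2.20, 1.41 and 1.80 FPKM at 24 months. All 19-month libraries lay below all libraries of the other ages, and those at 3 and 24 months overlapped. All 3 of its 19-month values were under 1 FPKM, so it passed the filter through the other ages, where it is higher, and it was not tested when 1 FPKM was asked of all 9 libraries. Its averages were 1.45 ± 0.552, 0.318 ± 0.0430 and 1.80 ± 0.391 FPKM (n = 3). Gpx3 fell by 0.87 ± 0.21 on the log2 scale at 19 against 3 months (limma, adjusted p = 0.048) and rose by 1.08 ± 0.21 at 24 against 19 months (adjusted p = 0.0276). The change of 0.21 ± 0.21 at 24 against 3 months was not called (adjusted p = 0.592). With 1 library left out, the lower value at 19 months stayed called in 2 of the 9 fits, those without replicate 3 at 3 months or replicate 2 at 24 months, and the adjusted p reached 0.182 without replicate 1 at 3 months. It was lost with quantile normalisation too (0.0775). On log2(FPKM + 0.1) the changes were -1.82 at 19 against 3 months and 2.17 at 24 against 19 months, both called. The rise at 24 months was lost without replicate 2 or 3 at 19 months or replicate 4 at 24 months, with an adjusted p of up to 0.111.

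Fcer1g, a subunit of Fc receptors on immune cells, moved in both of the comparisons that called Gpx3. It averaged 3.70 ± 0.795, 1.52 ± 0.393 and 5.92 ± 1.36 FPKM and was called lower at 19 against 3 months (adjusted p = 0.0373) and higher at 24 against 19 months (adjusted p = 0.00403). It was the one called of the 6 tested genes of a 10-gene immune list, whose summed FPKM ranged from 39.5 to 79.4 at 3 months, 33.9 to 61.7 at 19 months and 45.7 to 74.9 at 24 months. Cd74, which averaged 33.6 ± 18.4, 32.1 ± 14.1 and 30.4 ± 11.2 FPKM, made up much of that sum. The median change of the 6 was -0.37 at 19 against 3 months, with 5 below 0, and 0.75 at 24 against 19 months, with 4 above 0 and 4 at unadjusted p under 0.05, against 0.01 and -0.02 over all genes. Lyz2, of macrophages, was listed at 0 in every library at 3 and 19 months. In bulk RNA, fewer cells of a type and less RNA per cell cannot be told apart, and the part of immune cells in the Gpx3 values was not tested.

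Gpx2, the epithelial glutathione peroxidase first known from the gut, stood at 6.80, 16.6 and 16.2 FPKM at 3 months, 21.5, 27.5 and 45.9 FPKM at 19 months and 18.7, 13.4 and 11.6 FPKM at 24 months. Every 19-month library lay above all libraries of the other ages, which overlapped each other. Its averages were 13.2 ± 5.55, 31.7 ± 12.7 and 14.6 ± 3.72 FPKM (n = 3). The F test called it (limma, adjusted p = 0.049), while the change of 1.22 ± 0.30 at 19 against 3 months (adjusted p = 0.0549) and that of -1.02 ± 0.30 at 24 against 19 months (adjusted p = 0.14) were not called. The F call held in 2 of the 9 fits with 1 library left out, those without replicate 1 at 19 months or replicate 2 at 24 months, and the adjusted p reached 0.186 without replicate 3 at 19 months, its highest library. It was also lost with log2(FPKM + 0.1) (0.056), a robust prior (0.162), upper-quartile scaling (0.0632) and quantile normalisation (0.0761). The change at 19 against 3 months was called when 1 FPKM was asked of all 9 libraries (0.0421) and without replicate 1 at 19 months (0.0249).

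The most abundant peroxidase, Gpx1, was not called at 19 against 3 months (-0.16 ± 0.17, adjusted p = 0.688), at 24 against 3 months (-0.33 ± 0.17, adjusted p = 0.27) or at 24 against 19 months (-0.17 ± 0.17, adjusted p = 0.742). With quantile normalisation it was called lower at 24 against 3 months (-0.59 ± 0.14, adjusted p = 0.0374). Gpx4, which reduces lipid hydroperoxides in membranes and protects cells from ferroptosis, averaged 283 ± 24.2, 340 ± 4.87 and 272 ± 21.6 FPKM. Its 19-month libraries, at 344, 341 and 335 FPKM, lay above all the others, but it was not called (adjusted p = 0.226 by the F test), and 34.7% of its 50-base windows occur in other genes. Gpx8, of the endoplasmic reticulum, averaged 71.5 ± 3.30, 83.6 ± 15.4 and 88.5 ± 15.8 FPKM and was not called.

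The largest group was the glutathione transferases, with 21 rows and 18 tested. The test called 1 of the 18 higher at 19 against 3 months and 2 higher at 24 against 3 months, and 0 lower in either. Over all genes tested, 0.6% and 1.5% were called higher and 0.964% and 2.34% lower. Changes above 0 numbered 12 of 18 at 19 months and 13 of 18 at 24 months against 3 months. The medians of the 18 were 0.23 and 0.21 on the log2 scale, against 0.01 and 0 over all genes. The summed FPKM of the 21 rows was 949 to 1208.0 at 3 months, 1351.2 to 1567.6 at 19 months and 1289.5 to 1484.8 at 24 months, so every library of the later ages lay above every 3-month library. Without Gstm5 the sums were 715 to 848, 884 to 997 and 821 to 998 FPKM, and the 24-month libraries then overlapped those at 3 months.

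Gstm5 had the highest FPKM of the mu class, cytosolic transferases whose genes form a cluster. Its libraries stood at 234, 359.6 and 301 FPKM at 3 months, 467, 568 and 571 FPKM at 19 months and 490.3, 468 and 487 FPKM at 24 months. All 6 libraries of the later ages lay above the 3-month ones, and the later ages overlapped. The averages were 298 ± 62.8, 535 ± 59.2 and 482 ± 11.7 FPKM (n = 3). Gstm5 rose by 0.86 ± 0.16 on the log2 scale at 19 against 3 months (limma, adjusted p = 0.013) and by 0.71 ± 0.16 at 24 against 3 months (adjusted p = 0.0223). At 24 against 19 months the change was -0.15 ± 0.16 (adjusted p = 0.766). The call at 19 months was lost without replicate 1 at 3 months, replicate 2 at 19 months or replicate 3 at 19 months (adjusted p up to 0.0645). The call at 24 months was lost without replicate 1 or 3 at 3 months or replicate 2 or 4 at 24 months (up to 0.0842) and with quantile normalisation (0.0609).

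Of the 50-base windows of Gstm5, 9.44% are shared with 4933431E20Rik, a gene on the opposite strand, and whether strand was used is not stated in the labels. That gene was at 24.4 to 35.3 FPKM at 3 months, 29.6 to 35.2 at 19 months and 24.0 to 28.2 at 24 months, so its libraries at 3 months overlapped those of both later ages.

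All 5 other tested mu-class transferases had changes above 0 at 19 against 3 months, in the main scaling and in both others tried, and 0 of the 5 were called (smallest adjusted p = 0.117, for Gstm7). At unadjusted p under 0.05 there were 3 of the 5, against 15.7% of all genes. Gstm1 averaged 238 ± 29.0, 288 ± 10.9 and 314 ± 42.8 FPKM and Gstm2 159 ± 18.6, 207 ± 35.3 and 166 ± 13.2 FPKM. Gstm7 averaged 6.38 ± 2.18, 10.9 ± 0.681 and 5.83 ± 1.55 FPKM, and its 19-month libraries lay above all the others. It was called lower at 24 against 19 months without replicate 1 at 3 months (-0.82 ± 0.18, adjusted p = 0.0456). Gstm5 made up 37.4% to 42.2% of the mu-class FPKM at 3 months, 48.7% to 50.02% at 19 months and 46.6% to 50.9% at 24 months, with no overlap between 3 months and the later ages.

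Gstt1, of the theta class, whose members act on small halogenated compounds, was at 21.2, 21.8 and 20.3 FPKM at 3 months. At 19 months it was at 38.4, 37.1 and 24.1 FPKM and at 24 months at 47.0, 46.6 and 52.9 FPKM. The libraries of the 3 ages did not overlap, and replicate 3 at 19 months lay closer to the 3-month libraries than to its own group. The averages were 21.1 ± 0.756, 33.2 ± 7.92 and 48.8 ± 3.53 FPKM (n = 3). Gstt1 rose by 1.17 ± 0.16 on the log2 scale at 24 against 3 months (limma, adjusted p = 0.00254), and this call held whichever of the 9 libraries was left out (adjusted p up to 0.0157). The changes of 0.60 ± 0.16 at 19 against 3 months (adjusted p = 0.0812) and 0.57 ± 0.16 at 24 against 19 months (adjusted p = 0.125) were not called. Without replicate 3 at 19 months the first of these was called (0.81 ± 0.15, adjusted p = 0.0164). None of its 50-base windows occurs in another annotated gene.

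Its class neighbour Gstt2 was lower, at 5.10, 3.47 and 3.18 FPKM at 3 months, 3.31, 3.21 and 2.15 FPKM at 19 months and 6.62, 5.12 and 6.49 FPKM at 24 months. The 24-month libraries lay above all the others, and those at 3 and 19 months overlapped. The averages were 3.92 ± 1.03, 2.89 ± 0.641 and 6.07 ± 0.831 FPKM (n = 3). The F test called Gstt2 (limma, adjusted p = 0.0449). The largest change between a pair of ages, 0.87 ± 0.20 at 24 against 19 months, was not called (adjusted p = 0.0507). The F call held in 2 of the 9 such fits, those without replicate 1 at 3 months or replicate 1 at 19 months, and the adjusted p reached 0.155 without replicate 4 at 24 months. It was lost with upper-quartile scaling (0.052) and quantile normalisation (0.0581). The change at 24 against 19 months was called with a robust prior (0.0388), with 1 FPKM asked of all 9 libraries (0.0362) and without replicate 1 at 3 months (0.0393). Gstt3, the most abundant theta-class member, averaged 62.1 ± 8.21, 71.2 ± 1.7 and 71.0 ± 5.83 FPKM and was not called (0.20 ± 0.13, adjusted p = 0.483, at 19 against 3 months and 0.20 ± 0.13, adjusted p = 0.414, at 24 against 3 months).

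**Figure D3:**
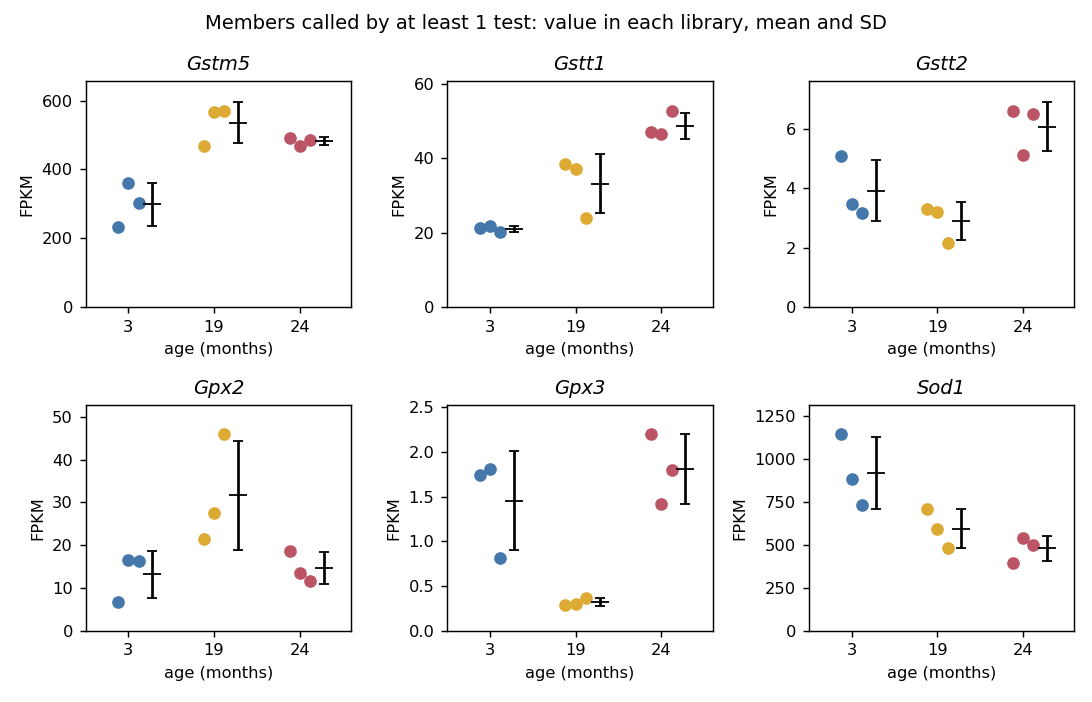
FPKM of the 6 enzymes called by at least 1 test, in each library at 3, 19 and 24 months, with the mean and SD of 3 libraries and axes that start at 0. Gstm5 lies higher at both later ages, Gstt1 is highest at 24 months, Sod1 is highest at 3 months, Gpx3 is lowest and Gpx2 highest at 19 months, and Gstt2 is highest at 24 months.

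The alpha-class transferases, abundant in liver, were low here. Gsta2 averaged 2.79 ± 0.409, 2.59 ± 0.505 and 4.33 ± 1.18 FPKM and Gsta3 2.27 ± 0.843, 0.779 ± 0.261 and 1.93 ± 0.361 FPKM. Neither was called. Gsta3 had a change of -0.85 ± 0.22 at 19 against 3 months (adjusted p = 0.0654) and an adjusted p of 0.0574 by the F test. It was called without replicate 3 at 3 months (-1.07 ± 0.21, adjusted p = 0.0298) and, by the F test, with a robust prior (0.0444). Gsta4 averaged 1.11 ± 0.525, 0.991 ± 0.179 and 2.52 ± 1.45 FPKM and was not called, but was called higher at 24 against 3 months without replicate 3 at 24 months (1.06 ± 0.23, adjusted p = 0.0252). Like Gpx3, Gsta3 had its lowest libraries at 19 months, at 0.861, 0.487 and 0.988 FPKM, below every library of the other ages. These values are all under 1 FPKM, so Gsta3 too passed the filter through the other ages, where it is higher. Of the pi class, which conjugates a wide range of electrophiles, Gstp1 averaged 111 ± 5.08, 139 ± 17.6 and 118 ± 14.5 FPKM, and its 19-month libraries lay above those at 3 months without a call (0.32 ± 0.14, adjusted p = 0.272). Near-identical copies make Gsta2, Gstp1 and Gstp2 uncertain, with 49.8%, 33.7% and 54.3% of their 50-base windows shared with other genes. Gsto1, the omega-class enzyme that also reduces dehydroascorbate, averaged 56.3 ± 4.0, 55.7 ± 2.87 and 65.8 ± 8.10 FPKM. Gstz1, which isomerises maleylacetoacetate in tyrosine breakdown, averaged 41.0 ± 3.32, 46.0 ± 5.16 and 39.4 ± 7.43 FPKM, and Gstk1, of mitochondria and peroxisomes, 33.4 ± 5.56, 45.4 ± 4.78 and 40.5 ± 5.77 FPKM. None of these 3 was called in any comparison.

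The 6 tested peroxiredoxins, which reduce peroxides through a reactive cysteine, were not called in any comparison (smallest adjusted p 0.21 at 19 against 3 months, 0.387 at 24 against 3 months and 0.543 at 24 against 19 months). At unadjusted p under 0.05 there were 2, 0 and 0 of them, against 15.7%, 21.6% and 12.8% of all genes. All 6 had changes above 0 at 19 against 3 months and at 24 against 3 months, with medians of 0.20 and 0.16 on the log2 scale, but with quantile normalisation the counts were 4 and 3 of 6. Prdx1, the most abundant, averaged 517 ± 65.4, 685 ± 101 and 573 ± 40.1 FPKM, with changes against 3 months of 0.40 ± 0.15 (adjusted p = 0.21) and 0.16 ± 0.15 (adjusted p = 0.591). Cytosolic Prdx2 averaged 196 ± 17.9, 240 ± 22.0 and 221 ± 19.7 FPKM, and Prdx5, found in several compartments, 346 ± 16.7, 389 ± 30.9 and 403 ± 49.7 FPKM. Prdx6, which uses glutathione and also acts as a phospholipase, averaged 330.3 ± 30.9, 351 ± 16.3 and 363 ± 35.6 FPKM. The mitochondrial Prdx3 and the Prdx4 of the endoplasmic reticulum were lower, at 21.9 to 23.8 and 41.0 to 48.0 FPKM as means of the ages.

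Thioredoxin (Txn1), which passes electrons to the peroxiredoxins, stood at 134, 144 and 133 FPKM at 3 months, 164, 195 and 214 FPKM at 19 months and 178, 156 and 182 FPKM at 24 months. All libraries of the later ages lay above the 3-month ones. The averages were 137 ± 5.89, 191 ± 25.4 and 172 ± 13.9 FPKM (n = 3), and the changes of 0.47 ± 0.13 at 19 against 3 months (limma, adjusted p = 0.0924) and 0.32 ± 0.13 at 24 against 3 months (adjusted p = 0.174) were not called. Its cytosolic reductase Txnrd1 averaged 3.10 ± 0.783, 4.5 ± 1.61 and 2.82 ± 0.303 FPKM. The mitochondrial Txnrd2 averaged 29.1 ± 8.15, 26.8 ± 3.16 and 36.9 ± 9.0 FPKM. Srxn1, which restores overoxidised peroxiredoxins, averaged 3.76 ± 1.03, 5.14 ± 0.944 and 3.28 ± 0.834 FPKM. These 3 were not called in any comparison.

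The genes for making and recycling glutathione were not called either. Gss was the most abundant of them, at 38.2 ± 6.53, 43.5 ± 3.59 and 39.6 ± 6.16 FPKM, with changes against 3 months of 0.20 ± 0.16 (adjusted p = 0.589) and 0.05 ± 0.16 (adjusted p = 0.878). Gclc, the catalytic subunit of the ligase, averaged 9.84 ± 2.59, 11 ± 1.05 and 12.9 ± 2.84 FPKM. Gclm, its modifier subunit, stood at 4.30, 4.21 and 7.95 FPKM at 3 months, 6.09, 7.27 and 8.76 FPKM at 19 months and 3.94, 4.12 and 4.49 FPKM at 24 months. Its libraries at 24 months lay below those at 19 months, with a change of -0.68 ± 0.21 that was not called (adjusted p = 0.163). Gsr averaged 5.66 ± 0.919, 5.15 ± 0.649 and 5.25 ± 0.848 FPKM.

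Nqo1, a quinone reductase, and Hmox1, the heme oxygenase that breaks down heme, are textbook targets of NRF2. Nqo1 averaged 29.4 ± 6.00, 33.8 ± 7.79 and 23.2 ± 1.82 FPKM, with changes against 3 months of 0.19 ± 0.19 (adjusted p = 0.664) and -0.31 ± 0.19 (adjusted p = 0.347), and was not called. Hmox1 ran from 0.462 to 6.15 FPKM at 3 months, 3.32 to 6.28 at 19 months and 1.64 to 4.42 at 24 months, and these ranges overlapped.

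Other genes of the pathway were taken from lists chosen with earlier results known. Every call given below for these lists was lost in the fit on all rows, where the smallest limma adjusted p among them was 0.0554, for Pgls. Of 11 tested NRF2 regulators, 0 were called at 19 against 3 months, 1 lower at 24 against 3 months and 1 higher at 24 against 19 months, with 3, 4 and 3 at unadjusted p under 0.05. Over all genes tested, 1.56%, 3.84% and 0.93% were called, and 15.7%, 21.6% and 12.8% had an unadjusted p under 0.05. The median change of the regulators was -0.11 on the log2 scale at 19 against 3 months with 4 of 11 above 0, 0.19 at 24 against 3 months with 6 above 0, and 0.08 at 24 against 19 months with 7 above 0. Nfe2l2 averaged 51.8 ± 1.58, 58.6 ± 2.59 and 61.1 ± 2.71 FPKM and Keap1 27.6 ± 2.22, 25.7 ± 4.02 and 21 ± 5.55 FPKM, and neither was called. The one lower at 24 months was Nfe2l1, a related factor that controls proteasome genes, which fell by 0.56 ± 0.14 on the log2 scale (adjusted p = 0.0393). That call held in 3 of 9 fits with 1 library left out, those without replicate 1 at 3 months, replicate 1 at 19 months or replicate 2 at 24 months, and reached 0.132 without replicate 2 at 3 months. Maff, a small MAF partner of these factors, rose by 1.07 ± 0.24 at 24 against 19 months (adjusted p = 0.0499), which held in 2 of 9 such fits, those without replicate 1 at 19 months or replicate 2 at 24 months, and reached 0.259 without replicate 4 at 24 months. It was lost with log2(FPKM + 0.1) (0.0525), upper-quartile scaling (0.0619) and quantile normalisation (0.0787).

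Of 9 tested genes that supply NADPH, Pgls was called at 24 against 3 months and 0 in the other comparisons, with 3 at unadjusted p under 0.05 at 19 against 3 months, 2 at 24 against 3 months and 4 at 24 against 19 months. Of all genes, 15.7%, 21.6% and 12.8% had an unadjusted p under 0.05 in these comparisons. The median change of the list was -0.05, -0.04 and -0.26 in that order, against 0.01, 0 and -0.02 over all genes. Pgls, the lactonase of the oxidative pentose phosphate pathway, averaged 40.9 ± 3.25, 21.9 ± 8.45 and 12.2 ± 2.66 FPKM (n = 3). It fell by 1.68 ± 0.22 on the log2 scale at 24 against 3 months (limma, adjusted p = 0.00197). That call held whichever of the 9 libraries was left out but was lost in the fit on all rows (0.0554). The enzymes on either side of it in that pathway were not called: G6pdx averaged 12 ± 1.87, 13.4 ± 1.22 and 11.2 ± 1.44 FPKM and Pgd 27.6 ± 9.70, 25.5 ± 6.01 and 22.7 ± 2.31 FPKM.

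Of 35 other glutathione and thiol genes, 31 were tested, with median changes of 0.13 at 19 against 3 months, 0.09 at 24 against 3 months and -0.07 at 24 against 19 months. At 19 against 3 months 1 was called higher, Hagh, the glyoxalase that releases glutathione from its lactate adduct, by 0.65 ± 0.14 on the log2 scale (adjusted p = 0.0348). That call was lost without any 1 of the 3-month libraries or without replicate 2 or 3 at 19 months, with an adjusted p of up to 0.195, and with quantile normalisation (0.0775). At 24 against 3 months 2 were called higher and 1 lower, and at 24 against 19 months 0 were called, with 5 at unadjusted p under 0.05, against 12.8% of all genes. Mgst1, the microsomal glutathione transferase, averaged 211 ± 26.0, 233 ± 30.1 and 366 ± 57.2 FPKM and rose by 0.79 ± 0.15 (adjusted p = 0.0123, and 0.0645 without replicate 4 at 24 months). Txnip, which binds and inhibits thioredoxin, averaged 418 ± 70.8, 428 ± 58.6 and 815 ± 264 FPKM and rose by 0.91 ± 0.22 (adjusted p = 0.0323), lost without replicate 2 or 3 at 3 months or replicate 3 or 4 at 24 months, with an adjusted p of up to 0.146, and with quantile normalisation (0.117). Oplah, the oxoprolinase of the glutathione cycle, averaged 50.1 ± 4.87, 31.7 ± 7.98 and 25.3 ± 5.97 FPKM and fell by 0.98 ± 0.19 (adjusted p = 0.0116), lost without replicate 2 at 3 months or replicate 4 at 24 months, with an adjusted p of up to 0.0597. Of 8 selenoprotein synthesis genes, 6 heme and iron genes and 5 tested oxidant-producing genes, limma called 0 in any comparison, and at most 2 of a list had an unadjusted p under 0.05 in any one comparison.

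**Figure D4:**
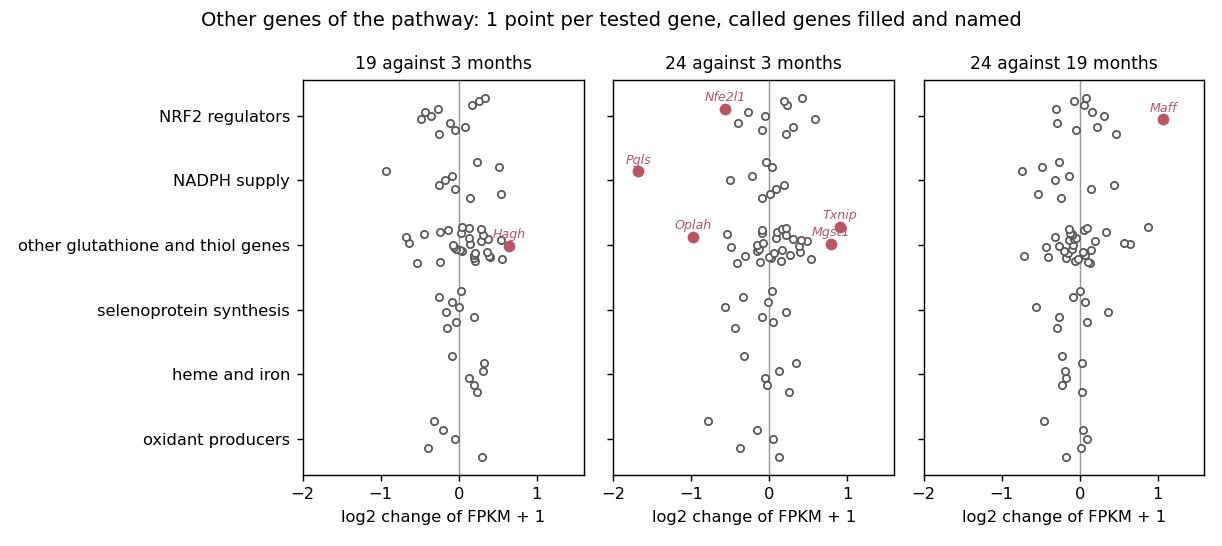
Change of the tested pathway genes that are not among the 51 enzymes, one point per gene and one row per list, on the log2(FPKM + 1) scale in the 3 age comparisons. Called genes are filled and named. Pgls at 24 against 3 months lies furthest from 0 among them, at -1.68.

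Of 10 tested follicle stem cell markers, 2 were called higher at 19 (Sox9 and Nfatc1) and 1 lower at 24 against 3 months (Lgr5). Lgr5 averaged 121 ± 17.6, 78.7 ± 19.1 and 59.25 ± 7.09 FPKM and fell by 1.01 ± 0.17 on the log2 scale at 24 months (limma, adjusted p = 0.00581). The list summed to 4103.2 to 5988.2, 5205.0 to 6174.5 and 5168.9 to 7656.5 FPKM. Most of this was Krt14, which averaged 3805, 4417 and 5304 FPKM, and Krt5 was neither tested nor summed. Markers of other skin cells moved with age beside these enzymes. Of 12 tested sebaceous gland markers, 8 were called lower at 19 and 8 lower at 24 against 3 months, with Scd1, a fatty acid desaturase, at 41.9 ± 6.04, 18.9 ± 0.398 and 18.4 ± 1.7 FPKM. Both counts include Mc5r, Scd3 and Soat1, which averaged under 1 FPKM at both later ages. These passed the filter through 3 months, where they are higher, so the counts rest partly on the filter. Cidea, Far2 and Elovl3, also in both counts, were low at the later ages too. They averaged 1.07, 1.25 and 1.33 FPKM at 19 months and 1.40, 1.265 and 0.862 FPKM at 24 months. Mgst1 is on that list too and was its one gene called higher, and the list's summed FPKM, in which Mgst1 is the largest entry, was 359 to 458, 366 to 409 and 445 to 538. Of 2 tested endothelial markers, 2 were called lower at 24 against 3 months, and the list summed to 11.8 to 14.2, 9.67 to 10.7 and 5.62 to 7.24 FPKM. Melanocyte markers had 1 of 4 called lower at each later age, Tyrp1, and sums of 12.8 to 18.6, 6.77 to 8.63 and 4.65 to 9.32 FPKM. Tyrp1 averaged 2.70, 0.357 and 0.436 FPKM, so it too passed the filter through 3 months. These lists moved in the same age comparisons as Sod1, Gstm5 and Gstt1, and their part in those results was not tested. Markers of red cells, which are rich in catalase and Prdx2 protein, had 0 of 4 called, with sums of 6.34 to 11.6, 12.04 to 28.1 and 7.66 to 38.8 FPKM. Of 9 tested markers of differentiated epidermis, Krt79 was called lower at 19 against 3 months. In that comparison 6 of the 9 had changes above 0, with a median of 0.20 against 0.01 over all genes. The epidermis list summed to 5021.2 to 6321.9, 6540.9 to 8873 and 4584.7 to 8371.1 FPKM. Every 19-month sum thus lay above every 3-month one, as for 11 of the enzymes, and the part of this list in those results was not tested. Most of that sum was Krt17, which averaged 3268, 4725 and 2973 FPKM, and Krtdap, at 1963, 2232 and 2853 FPKM. Krt1, Krt10 and Krt79 had changes below 0 at 19 against 3 months, of -0.80, -0.30 and -0.97 on the log2 scale. Of 2 tested fibroblast markers, Col1a2, a chain of type I collagen, passed the F test (adjusted p = 0.0495) and 0 were called between a pair of ages. The fibroblast list summed to 5.99 to 8.75, 10.003 to 11.97 and 9.44 to 16.7 FPKM. Every later sum thus lay above every 3-month one, as for Gstm5 and Gstt1. Much of that sum was Col1a2, which averaged 5.80, 10.04 and 8.98 FPKM. The other tested marker, Col1a1, averaged 1.11, 0.713 and 0.945 FPKM. Its changes against 3 months were below 0, at -0.3 and -0.19 on the log2 scale. The remaining genes of the list were not tested, so the sum does not show that the list as a whole rose. The part of this list in the results for Gstm5 and Gstt1 was not tested. The muscle list, with 1 tested gene and 0 called, summed to 9.0 to 11.7, 12.2 to 17.6 and 11.4 to 14.2 FPKM. The adipocyte list, with 1 tested gene and 0 called, summed to 1.63 to 2.84, 1.24 to 2.24 and 1.52 to 2.21 FPKM.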

How the data were processed

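The deposited table gives FPKM for 9 libraries. Per the submitters' processing notes the authors used TopHat, Cuffdiff and the genome build NCBIM37; no versions are stated there. No read counts are part of the table, so depth is unknown and no counting interval was given. Gene types came from GENCODE M21 by Ensembl identifier, which matched 32935 of 37980 rows.

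The log2(FPKM + 1) values, computed from the deposited FPKM, were fitted in limma 3.58.1 (R 4.3.3) with a mean-dependent prior variance and all 9 libraries in 1 model. Protein-coding genes that reached 1 FPKM in 3 or more libraries entered, without 36 rows that were listed at exactly 0 throughout one age and at 5 FPKM or more throughout another. Tests were two-sided and adjusted over 11509 genes, with a threshold of 0.05. The members, the lists and this gene set were chosen with earlier results of these data known, and the gene set was known to call more genes than the fit on all rows. The script was tested on simulated data.

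Values in full were given for enzymes called by any test and for the most abundant of each family, and counts and ranges for the others. Pathway genes outside the rule came from the lists, where called, together with Nfe2l2, Keap1, G6pdx and Pgd. Sequence shared between genes was counted as 50-base windows of the annotated transcripts found in another gene. Promoters came from RefSeq. Alternatives changed the gene set, pseudocount, filter, prior, scaling, replicate block and libraries.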

Additional observations from a re-analysis of the deposited data

How the results depend on the processing

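With all table rows, 40 genes were called at 19 against 3 months, 29 at 24 against 3 months and 7 at 24 against 19 months (180, 442 and 107 in the protein-coding set) and 32 by the F test (523), with 0 enzymes in each against 2, 3, 1 and 6. Unadjusted p was under 0.05 for 16, 8, 12 and 13 of the 43 enzymes, beside 1993, 2655, 1526 and 2456 of all 14275 rows. Without the low-value filter, 53, 118 and 0 genes and 59 by the F test were called by limma, with 0, 1, 0 and 0 enzymes. Unadjusted p was then under 0.05 for 18, 8, 13 and 15 of 46 enzymes, beside 2184, 2853, 1788 and 2769 of all 16802 genes. Quantile normalisation called 59 genes at 24 against 19 months and 1 enzyme at 19 against 3 months. A robust prior called 2 enzymes at 24 against 19 months, Gpx3 and Gstt2. The cause of these shifts was not tested.

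Leaving out 1 library gave 46 to 231, 133 to 457, 20 to 214 and 181 to 544 genes, and 0 to 3, 1 to 4, 0 to 3 and 3 to 6 enzymes, in the same order. Against 3 months, Gpx2 at 24 months ran from -0.186 to 0.401 on the log2 scale and Txnip at 19 months from -0.041 to 0.171. With quantile normalisation the 19-month change of Mgst1 was -0.069 and that of Txnip -0.194.

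Same-numbered libraries deviated together in 3 of 7 pairs (correlation over 0.1, range -0.20 to 0.19), and unlike-numbered ones in 5 of 20 (range -0.23 to 0.16). The deviations were taken from the mean of only 3 libraries per age, so 7 pairs cannot decide whether the numbers pair the libraries. A replicate block called 253, 158 and 110 genes and 352 by the F test, and 2, 1, 2 and 6 enzymes. The enzymes were Gpx2 and Gstm5 at 19 against 3 months, Gstt1 at 24 against 3 months, and Gpx2 and Nqo1, both lower, at 24 against 19 months. With the block, the limma calls at 24 against 3 months were lost for Sod1 (adjusted p = 0.0579) and Gstm5 (0.0855). Gpx3 was lost at 19 against 3 months (0.0509) and at 24 against 19 months (0.057).

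Over the 18 alternatives, the median change of the enzymes stayed between 0.10 and 0.27 at 19 against 3 months, 0.04 and 0.24 at 24 against 3 months, and -0.18 and -0.06 at 24 against 19 months. With 3 libraries of unknown depth at each age, a missed threshold does not show that a level stayed the same.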

Other observations

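These patterns were picked out after the values had been seen and are given without a test. The subunits of glutamate-cysteine ligase diverged at 24 months: the ratio of Gclc to Gclm FPKM was 1.61 to 2.06 at 3 months, 1.38 to 1.78 at 19 months and 2.51 to 3.45 at 24 months, so every 24-month library lay above all the others. Gclm overlaps Gm17494 on the opposite strand, which makes its level uncertain.

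Within the theta class, the ratio of Gstt1 to Gstt2 FPKM was 4.16 to 6.37 at 3 months, 11.2 to 11.6 at 19 months and 7.10 to 9.10 at 24 months, and these ranges did not overlap. That of Gstt1 to Gstt3 was 0.313 to 0.398, 0.347 to 0.528 and 0.60 to 0.794, with the 24-month libraries above all the others. The ratio of Sod1 to Gpx1 was 0.866 to 1.16 at 3 months, 0.608 to 0.763 at 19 months and 0.405 to 0.845 at 24 months, and the 3-month libraries lay above all the others.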
